A study of Mus musculus with 20 samples.

Results

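Abdominal aortas of 5 Rab22a knockout mice infused with angiotensin II (AngII) were compared with those of 5 wild type mice given saline, which are 10 of the 20 libraries of the series. The libraries were chosen by their group labels alone, and no measured value entered the choice. KO+AngII mice (genotype Rab22 KO) received 500 ng/kg/min AngII, and WT+NS mice (genotype Rab22 WT) received saline, both for 14 days. All mice are labelled C57BL/6. The other libraries are 5 of knockout mice with saline (KO+NS) and 5 of wild type mice with AngII (WT+AngII), under the same dose and duration. The allele design, the cells in which Rab22a is absent, the sex and the age of the mice are not stated in the labels. Genotype and treatment both differ between KO+AngII and WT+NS, so within this comparison their contributions cannot be told apart. The comparison asks whether the treated knockout aorta resembles the untreated wild type aorta.

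AngII constricts vessels and promotes remodelling of the arterial wall mainly through the type I receptor AT1R, which in mice is encoded by Agtr1a and Agtr1b. After it binds its ligand, the receptor is internalised into early endosomes, from which it is either degraded or returned to the cell surface. Rab22a is a small GTPase of early endosomes that takes part in the recycling of internalised cargo, and the series title names AT1R recycling.

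The knockout was visible in the structure of the Rab22a transcript and not in the summed gene level. Rab22a lies on chromosome 2, plus strand (mm10), and its exon 3 holds 82 bases. The full-length coding transcript ENSMUST00000029024 contains that exon. A minor annotated transcript, ENSMUST00000109110, also contains it, and ENSMUST00000142820, annotated as a target of nonsense-mediated decay, lacks it. The 82 bases make 27 codons with a remainder of 1 base.

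The full-length form was at 0.00186, 0.00558, 0.00187, 0.00563 and 0.0056 FPKM (fragments per kilobase of transcript, scaled to library depth) in KO+AngII aortas, against 6.66, 7.12, 8.42, 2.34 and 4.96 FPKM in WT+NS aortas. The groups did not overlap, and the two-sided exact permutation p was 0.00794, the smallest that 5 against 5 libraries allow. The form without exon 3 averaged 9.20 ± 0.60 FPKM in KO+AngII aortas and 2.18 ± 1.47 FPKM in WT+NS aortas (SD, n = 5 each; exact permutation p = 0.00794). Summed over its forms, Rab22a averaged 9.24 ± 0.60 FPKM in KO+AngII aortas and 8.16 ± 3.11 FPKM in WT+NS aortas (SD, n = 5 each), with overlapping values (exact permutation p = 0.619). The WT+NS library of replicate 4 had the lowest sum of all 10, 2.82 FPKM. In KO+NS aortas the full-length form reached at most 0.00363 FPKM, so in all 10 knockout libraries it lay below every wild type library. The minor form with exon 3 was at 0.125, 0, 0, 0.0158 and 0.0315 FPKM in KO+AngII aortas, against 0.0633, 0, 0, 0.321 and 0 FPKM in WT+NS aortas. It overlapped between the groups (exact permutation p = 0.722) and was at most 0.0769 FPKM in KO+NS aortas.

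**Figure D1:**
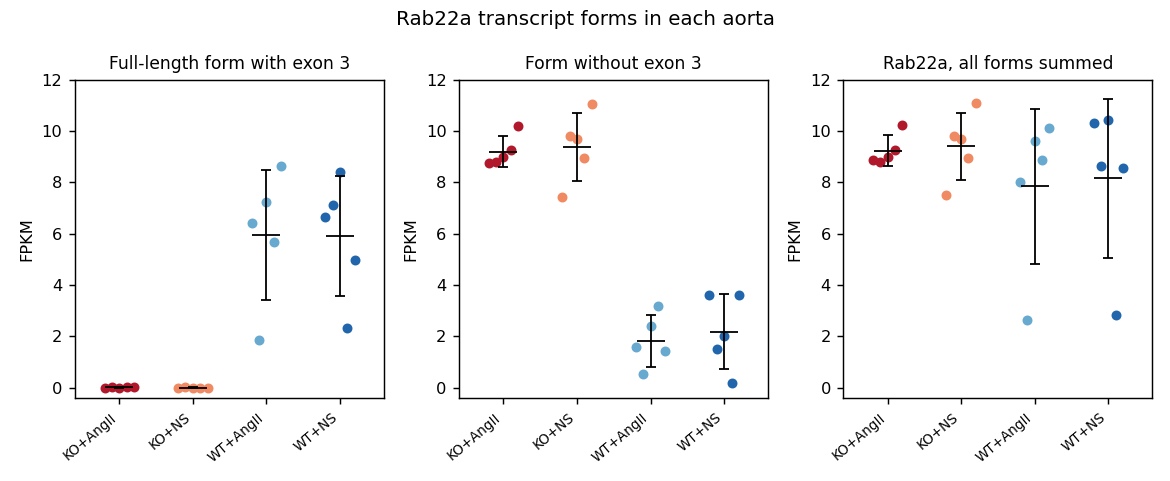
Rab22a FPKM in each aorta for the full-length form with exon 3, the form without it and all 3 annotated forms summed, in 4 groups of 5 libraries (points; bars are mean and SD). The full-length form is near 0 in both knockout groups, while the summed level of KO+AngII (8.79 to 10.3 FPKM) lies among the WT+NS values.

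The depth implied by the values was 74.4 to 75.2 (in units of 1e6 reads) in KO+AngII and 71.2 to 77.1 in WT+NS. Markers of the aortic wall were present in every library. Myh11, the smooth muscle myosin heavy chain, averaged 285 ± 51.7 FPKM in KO+AngII and 339 ± 40.03 FPKM in WT+NS (SD, n = 5 each), and Acta2, smooth muscle actin, 1803 ± 400.1 FPKM in KO+AngII and 1716 ± 336 FPKM in WT+NS. The endothelial cadherin Cdh5 averaged 55.3 FPKM in KO+AngII and 62.4 FPKM in WT+NS, and the fibroblast genes Pdgfra (16.7 FPKM in KO+AngII and 15.02 FPKM in WT+NS) and Dpt (94.1 and 88.2 FPKM in the same groups) were also measured in both. None of these 5 genes passed the test. Transcript models above 0 numbered 74093 to 82052 in KO+AngII and 81734 to 91198 in WT+NS (exact permutation p = 0.0238). Genes with at least 1 FPKM did not separate the groups (12504 to 14007 in KO+AngII, 13342 to 14255 in WT+NS, exact permutation p = 0.262).

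Across 15010 genes, 3 rose and 8 fell in KO+AngII relative to WT+NS at an adjusted p under 0.05 (limma on log2(FPKM + 1), Benjamini-Hochberg), which is 0.02% and 0.0533% of the genes tested. The genes that rose were Lum, Bmpr2 and Manea. Those that fell were Prkcsh, Dda1, Rpp21, Hypk, H2-Ke6, Gm10800 and the pseudogenes Gm13050 and Fau-ps2. Gm10800 and Fau-ps2 reached the level required for testing, 1 FPKM in 5 or more libraries, only through wild type libraries. At an unadjusted p under 0.05, 542 genes (3.61%) were higher and 1273 (8.48%) lower. For 158 genes (1.05%) every KO+AngII value lay above every WT+NS value, and for 450 genes (3%) every one lay below. For 11060 genes, 73.7% of those tested, the 95% confidence interval of the log2 difference lay inside a 2-fold change in either direction. The median gene's interval extended 0.46 to either side on the log2 scale, and 445 genes had an estimate of 2-fold or more. With log2(FPKM + 0.1) in place of log2(FPKM + 1), the interval lay inside 2-fold for 8891 genes.

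The balance of higher and lower genes depended on how the libraries were scaled. The median log2 difference over all genes was -0.10, and 63% of genes lay below 0. With scaling factors in the manner of TMM, 5 genes were called higher and 4 lower, and 378 were non-overlapping above and 230 below. With quantile normalization, 8 were called higher and 7 lower, and 466 were non-overlapping above and 216 below. The log2 difference also tracked transcript length (Spearman 0.335 across 15010 genes) and GC content (-0.266), where genes are not independent replicates. The genes non-overlapping above had a median length of 3543 bases and 43.4% GC, those below 1423 bases and 55.0% GC, and all tested genes 2473 bases and 50.6% GC. With the trend on length and GC removed, a choice made after seeing the data, 1 gene remained called, Gm10800.

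As a measure of overall distance, the root mean square log2 difference over tested genes averaged 0.812 between KO+AngII and WT+NS libraries, 0.877 within KO+AngII and 0.689 within WT+NS. The between-group mean exceeded the mean within groups by 0.028 (one-sided exact permutation p = 0.183, adjusted over the 6 pairs of groups 0.365). Set beside it, KO+AngII against WT+AngII gave 0.064 (exact permutation p = 0.0317, adjusted 0.19) and KO+AngII against KO+NS gave -0.040 (exact permutation p = 0.786, adjusted 0.786). WT+AngII against WT+NS gave -0.010 (exact permutation p = 0.659, adjusted 0.786), with a mean distance of 0.661 between the groups. KO+NS against WT+NS gave 0.018 (exact permutation p = 0.278, adjusted 0.417), and WT+AngII against KO+NS gave 0.048 (exact permutation p = 0.143, adjusted 0.365). These comparisons share libraries. Of the KO+AngII libraries, replicate 4 was nearest to a WT+NS library (0.631), replicates 1 and 2 to a KO+NS library (0.524 and 0.737), and replicates 3 and 5 to each other (0.548). Without KO+AngII replicate 4 the excess was 0.0848 (exact permutation p = 0.0397). Without WT+NS replicate 1 it was -0.00153, and without WT+NS replicate 4 it was -0.00303. Without WT+NS replicates 2 and 3 in turn it was 0.0043 and 0.00204, and without KO+AngII replicates 3 and 5 in turn it was 0.0581 and 0.0503.

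**Figure D2:**
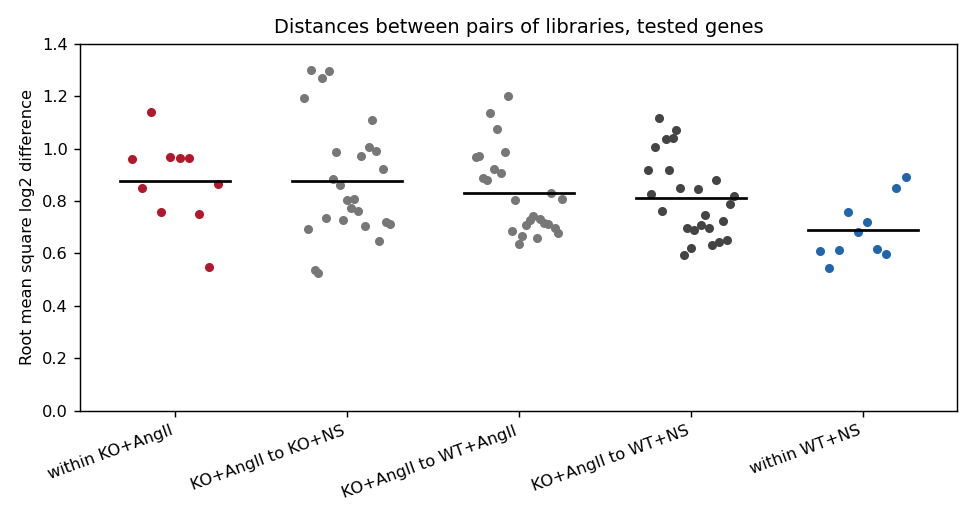
Root mean square log2 difference for each pair of libraries (points), within KO+AngII, from KO+AngII to the other groups, and within WT+NS. Lines are means. The distances from KO+AngII to WT+NS (0.595 to 1.12) overlap those within KO+AngII (0.548 to 1.14), and the mean within WT+NS (0.689) is the lowest.

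In 8 of the 11 called genes the KO+NS mean lay nearer to KO+AngII than to WT+NS on the log2 scale. The share among all tested genes was not counted, so this count only sorts the called genes. Bmpr2, the type II receptor for bone morphogenetic proteins, was at 11.9, 10.8, 10.01, 8.10 and 12.01 FPKM in KO+AngII aortas, against 5.27, 5.40, 5.07, 5.21 and 4.25 FPKM in WT+NS aortas. Every KO+AngII value lay above every WT+NS value, and the log2 difference was 0.93 ± 0.16 (SE, adjusted p = 0.0326). KO+NS averaged 9.43 FPKM and WT+AngII 6.22 FPKM. Manea, a mannosidase of the Golgi that trims glycoproteins, was at 9.39, 10.3, 9.99, 9.41 and 10.2 FPKM in KO+AngII aortas, against 5.82, 6.16, 5.65, 6.47 and 4.42 FPKM in WT+NS aortas. Its groups also did not overlap (log2 difference 0.70 ± 0.11 SE, adjusted p = 0.0201), with means of 8.65 FPKM in KO+NS and 5.61 FPKM in WT+AngII. Rpp21, a protein subunit of ribonuclease P, was at 10.5, 12.2, 9.98, 13.4 and 13.8 FPKM in KO+AngII aortas, against 21.1, 19.5, 20.7, 21.7 and 21.1 FPKM in WT+NS aortas. It fell by 0.76 on the log2 scale (SE 0.13, adjusted p = 0.0298), with 12.7 FPKM in KO+NS and 22.0 FPKM in WT+AngII.

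Hypk, a protein that binds the complex that acetylates the N termini of nascent proteins, was at 12.2, 13.1, 12.2, 13.1 and 14.8 FPKM in KO+AngII aortas, against 21.01, 19.1, 25.2, 19.4 and 25.03 FPKM in WT+NS aortas. The groups did not overlap, and Hypk fell by 0.70 on the log2 scale (SE 0.11, adjusted p = 0.0201). H2-Ke6, a dehydrogenase gene of the major histocompatibility region, averaged 30.3 ± 3.82 FPKM in KO+AngII and 47.1 ± 3.13 FPKM in WT+NS (SD, n = 5 each; log2 difference -0.63 ± 0.11 SE, adjusted p = 0.0493). The KO+NS means of Hypk and H2-Ke6 were 15.2 and 34.0 FPKM, and their WT+AngII means 20.51 and 49.0 FPKM.

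In the other 3, Lum, Prkcsh and Gm13050, the KO+NS mean lay nearer to WT+NS. Lum encodes lumican, a proteoglycan that binds collagen fibrils. It was at 50.01, 91.1, 65.5, 118.5 and 72.7 FPKM in KO+AngII aortas, against 27.9, 25.6, 42.1, 31.0 and 25.5 FPKM in WT+NS aortas. The lowest KO+AngII value lay above the highest WT+NS value, and the log2 difference was 1.32 ± 0.24 (SE, adjusted p = 0.0493). KO+NS and WT+AngII lay between, at 46.0 and 46.1 FPKM. Prkcsh, the beta subunit of glucosidase II in the endoplasmic reticulum, was at 13.4, 10.9, 14.4, 26.05 and 13.5 FPKM in KO+AngII aortas, against 37.3, 30.7, 27.1, 44.4 and 33.8 FPKM in WT+NS aortas. It fell by 1.14 on the log2 scale (SE 0.18, adjusted p = 0.0201), and KO+NS averaged 29.0 FPKM and WT+AngII 37.6 FPKM. Against KO+NS alone its log2 difference was -0.90 (adjusted p = 0.579).

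For Prkcsh and Dda1 most of the difference between the group means lay in a single annotated transcript. The Prkcsh transcript ENSMUST00000115331 was at 0.349, 0.396, 0.364, 3.50 and 0.579 FPKM in KO+AngII aortas, against 9.89, 19.4, 16.7, 34.9 and 23.0 FPKM in WT+NS aortas. The other main transcript, ENSMUST00000003493, averaged 14.1 ± 4.68 FPKM in KO+AngII and 13.2 ± 7.72 FPKM in WT+NS (SD, n = 5 each). Dda1 encodes a component of cullin ubiquitin ligases. Its gene sum was 18.3 ± 3.41 FPKM in KO+AngII and 34.4 ± 5.20 FPKM in WT+NS (SD, n = 5 each; log2 difference -0.88 ± 0.14 SE, adjusted p = 0.0201). The coding Dda1 transcript ENSMUST00000124745 averaged 10.8 FPKM in KO+AngII and 12.8 FPKM in WT+NS. The retained-intron transcript ENSMUST00000098645 averaged 2.83 FPKM in KO+AngII and 15.2 FPKM in WT+NS. It was at 9.12, 1.02, 1.48, 1.28 and 1.27 FPKM in KO+AngII aortas. Replicate 1 of that group lay close to the lowest WT+NS value, 9.555 FPKM. These transcripts were chosen after their values were seen and carry no test. How reads shared by overlapping transcripts were divided is not stated in the labels, so the split within a gene is less certain than its sum.

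Gm10800 had the largest difference of the called genes. It lies on chromosome 2 and was at 0.22, 0, 0.241, 0.445 and 0.743 FPKM in KO+AngII aortas, against 38.0, 70.7, 112.5, 35.7 and 13.2 FPKM in WT+NS aortas (log2 difference -5.07 ± 0.50 SE, adjusted p = 8.79e-05). KO+NS averaged 0.127 FPKM and WT+AngII 22.5 FPKM, and every knockout value lay below every wild type value. Its neighbour in the same numbering, Gm10801, was chosen after its values were seen. It was listed at 0 in 4 KO+AngII libraries and at 0.344 FPKM in the other, against 11.7, 0.0836, 25.003, 5.22 and 5.53 FPKM in WT+NS. Predicted loci of this kind can share reads with near-identical copies, so their assignment is uncertain. The pseudogene Gm13050 averaged 9.38 FPKM in KO+AngII and 20.1 FPKM in WT+NS (log2 difference -1.04 ± 0.19 SE, adjusted p = 0.0493). Fau-ps2 was listed at 0 in 4 KO+AngII libraries and averaged 1.22 FPKM in WT+NS. Its parent gene Fau, which encodes a ribosomal protein fused to a ubiquitin-like domain, was at 258 to 585.5 FPKM in KO+AngII and 475 to 768 FPKM in WT+NS. Both pseudogene values are uncertain for the same reason. Gm10800 and Fau-ps2 stayed below 1 FPKM in every knockout library, so they passed the filter only through wild type libraries. Their direction was partly fixed by that filter.

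**Figure D3:**
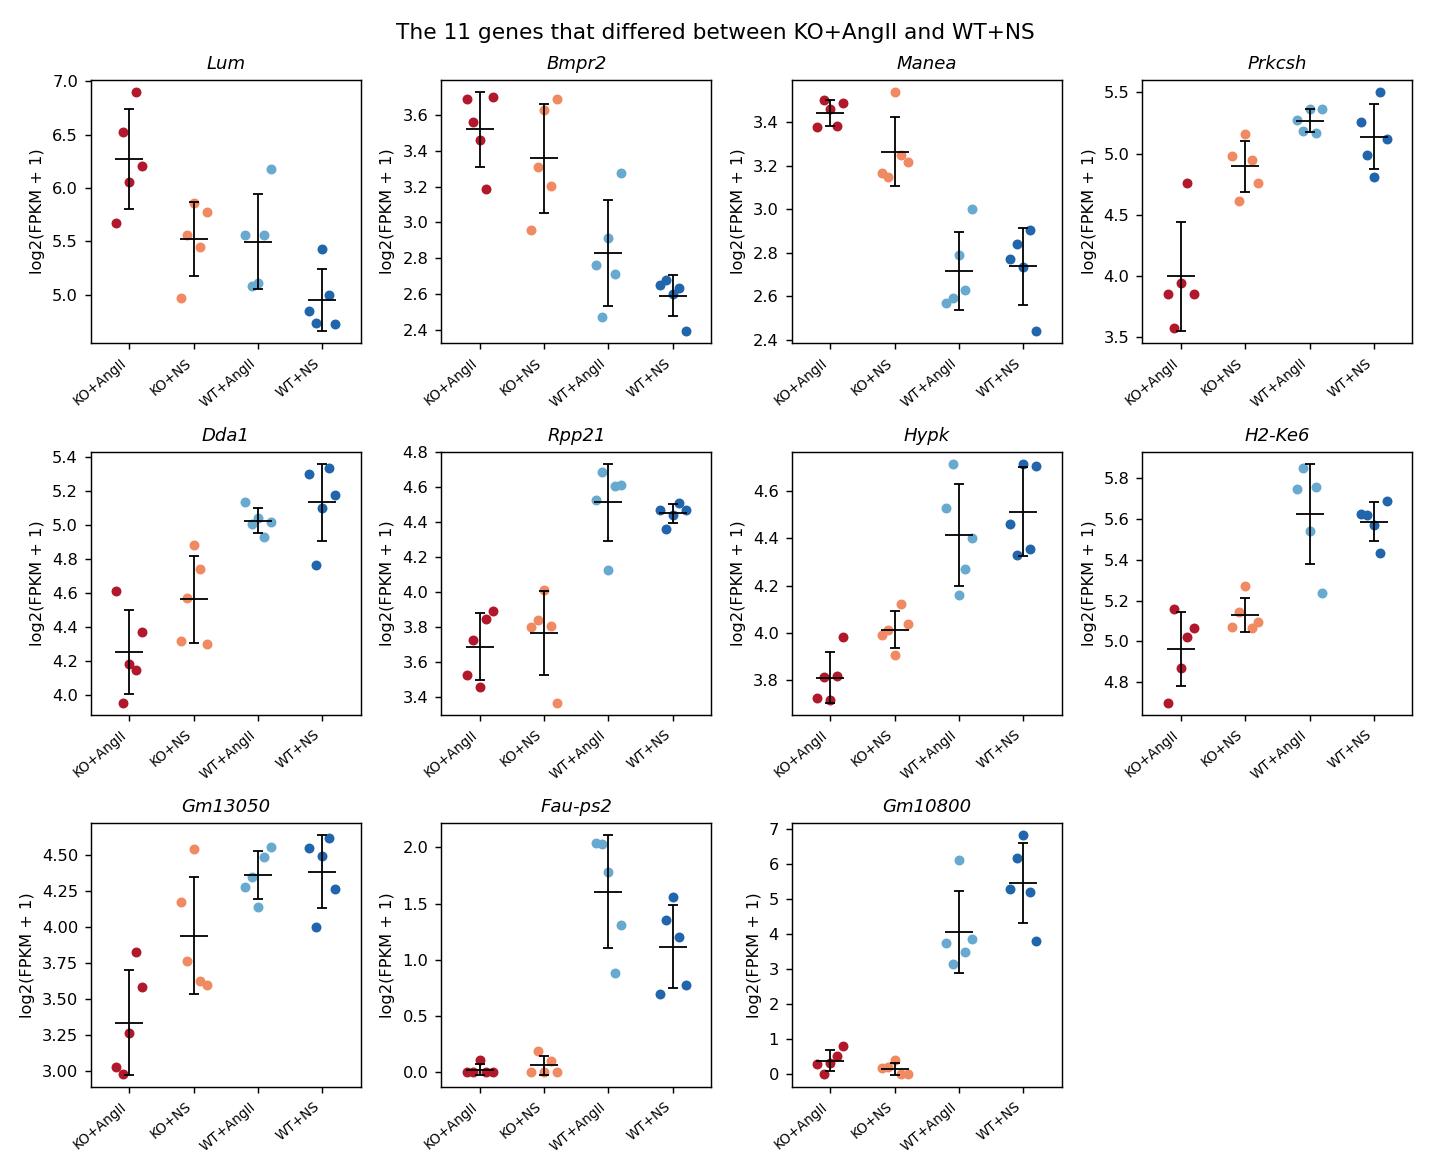
log2(FPKM + 1) in each library for the 11 called genes in 4 groups of 5 (points; bars are mean and SD). In all 11, KO+AngII and WT+NS do not overlap. Lum, Prkcsh and Gm13050 are the panels where the KO+NS mean lies nearer to WT+NS than to KO+AngII.

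Most calls were lost when 1 library was left out. With each of the 10 libraries left out in turn, Gm10800 was called in all 10 fits, Hypk and Dda1 in 4, Prkcsh, Manea and Rpp21 in 3, Bmpr2 and Gm13050 in 2, Lum in 1, and H2-Ke6 and Fau-ps2 in 0. Over 25 alternatives the highest adjusted p was 0.237 for Gm10800, 0.277 for Hypk and Dda1, 0.459 for Prkcsh and Rpp21, 0.512 for Manea and Gm13050, 0.566 for Fau-ps2, 0.656 for Bmpr2 and H2-Ke6, and 0.714 for Lum. The log2 differences kept their sign throughout, and that of Lum ranged over 0.75 to 1.47. The sample titles are numbers whose meaning the labels do not give. All 5 KO+AngII titles lie between 4046 and 4075, and 4 of 5 WT+NS titles are at most 4000. The remaining WT+NS library, replicate 3, has title 4086. With the title number as a covariate, coded here and below as 4046 or above against 4000 or below, Gm10800 was the only gene called. This split nearly coincides with KO+AngII against WT+NS, so the fit can hardly separate them.

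Other genes of small p did not pass the adjusted threshold although their groups did not overlap. Lep, the adipocyte hormone leptin, was at 20.7, 19.5, 28.1, 29.1 and 32.2 FPKM in KO+AngII aortas, against 7.34, 7.84, 2.28, 18.8 and 7.23 FPKM in WT+NS aortas (log2 difference 1.67 ± 0.33 SE, adjusted p = 0.062). Pnpla8, a phospholipase, averaged 13.4 FPKM in KO+AngII and 5.81 FPKM in WT+NS (adjusted p = 0.114). Ms4a4a, a membrane protein of macrophages, averaged 7.65 FPKM in KO+AngII and 1.59 FPKM in WT+NS (adjusted p = 0.12). Among genes lower in KO+AngII, Dapk3, a kinase that acts on myosin light chain regulation, averaged 20.2 ± 1.99 FPKM in KO+AngII and 30.7 ± 3.27 FPKM in WT+NS (SD, n = 5 each; adjusted p = 0.0586). The small nucleolar RNA Snora24 averaged 1.56 FPKM in KO+AngII and 4.84 FPKM in WT+NS (adjusted p = 0.0586).

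Gene lists were described by their counts and medians beside the median of all tested genes, -0.10. They carry no test because their members were chosen with earlier results of these data known. The median of all tested genes itself moved with the setting. It was 0.02 with quantile normalization, -0.03 with scaling factors in the manner of TMM and -0.14 with the title number as a covariate. Without KO+AngII replicates 1 and 2 it was -0.02. List medians under these settings are to be read beside those values. Of 30 lists, 2 held a called gene, and in both it was Lum. The list with the highest median was that of matricellular proteins and proteoglycans, secreted proteins that bind collagen, growth factors or cells in the extracellular matrix. Of its 22 tested members, 21 lay above 0, 15 had an unadjusted p under 0.05 with higher values (beside 3.61% of all genes), and the median log2 difference was 0.75. Its mean level on the log2(FPKM + 1) scale was 5.16, 6.02, 5.84, 6.05 and 5.85 in KO+AngII aortas, against 5.16, 4.73, 5.16, 4.93 and 5.19 in WT+NS aortas. KO+AngII replicate 1 lay within the WT+NS range and the other 4 lay above it. In the other contrasts the same list had medians of 0.83 for KO+AngII minus KO+NS, 0.26 for KO+AngII minus WT+AngII, -0.18 for KO+NS minus WT+NS and 0.49 for WT+AngII minus WT+NS. These contrasts share libraries.

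Within that list, Postn encodes periostin, a matricellular protein of remodelling tissue. It was at 122.9, 287, 267, 321.5 and 214 FPKM in KO+AngII aortas, against 111.8, 99.0, 97.4, 80.0 and 134.7 FPKM in WT+NS aortas (log2 difference 1.15 ± 0.28 SE, adjusted p = 0.122). The groups overlapped only through KO+AngII replicate 1. Aspn, the small proteoglycan asporin, averaged 21.9 ± 2.60 FPKM in KO+AngII and 12.9 ± 1.52 FPKM in WT+NS (SD, n = 5 each), with no overlap (adjusted p = 0.137). Ccn1, a matricellular protein induced by mechanical strain and growth factors, averaged 102 ± 50.4 FPKM in KO+AngII and 31.4 ± 12.2 FPKM in WT+NS (adjusted p = 0.141). In WT+AngII it averaged 31.2 FPKM.

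Collagen and elastic fibre genes had smaller positive medians, and no member was called. Of 22 tested genes for fibrillar collagens and collagen assembly, 18 lay above 0 with a median of 0.35, and 6 had an unadjusted p under 0.05, all higher (beside 3.61% of all genes). Col3a1, the chain of type III collagen, was at 245, 510, 498, 688.5 and 466 FPKM in KO+AngII aortas, against 239, 184.5, 327, 210 and 249 FPKM in WT+NS aortas (log2 difference 0.94 ± 0.35 SE, adjusted p = 0.26). Of 21 tested elastic fibre genes, 14 lay above 0 with a median of 0.25. Eln encodes elastin, the main protein of the elastic lamellae. It was at 109, 556, 343, 361 and 301 FPKM in KO+AngII aortas, against 139, 111.7, 158, 132.8 and 182 FPKM in WT+NS aortas (log2 difference 1.05 ± 0.38 SE, adjusted p = 0.251). Lox, the lysyl oxidase that crosslinks collagen and elastin, averaged 52.9 ± 18.4 FPKM in KO+AngII and 21.6 ± 3.24 FPKM in WT+NS (SD, n = 5 each; adjusted p = 0.122). For Col3a1 and Lox, KO+AngII replicate 1 lay within the WT+NS range, and for Eln it lay below it.

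The matrix protease list had a median of 0.24 and the basement membrane list 0.17. With the title number as a covariate the medians of the basement membrane, elastic fibre and matrix protease lists were -0.02, -0.02 and -0.04. That of the collagen list was 0.03 and that of the matricellular list 0.55. Leaving out 1 library moved the basement membrane median to 0.08 (without WT+NS replicate 5), the elastic fibre median to 0.16 and the collagen median to 0.24 (both without KO+AngII replicate 2), and the matrix protease median to 0.41 (without KO+AngII replicate 1). The TGF-beta pathway list, a signal that drives matrix production, had a median of -0.01 with 10 of 22 members above 0. It was 0.06 with scaling factors in the manner of TMM and 0.09 with quantile normalization. The median of all tested genes was -0.03 and 0.02 under those settings.

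**Figure D4:**
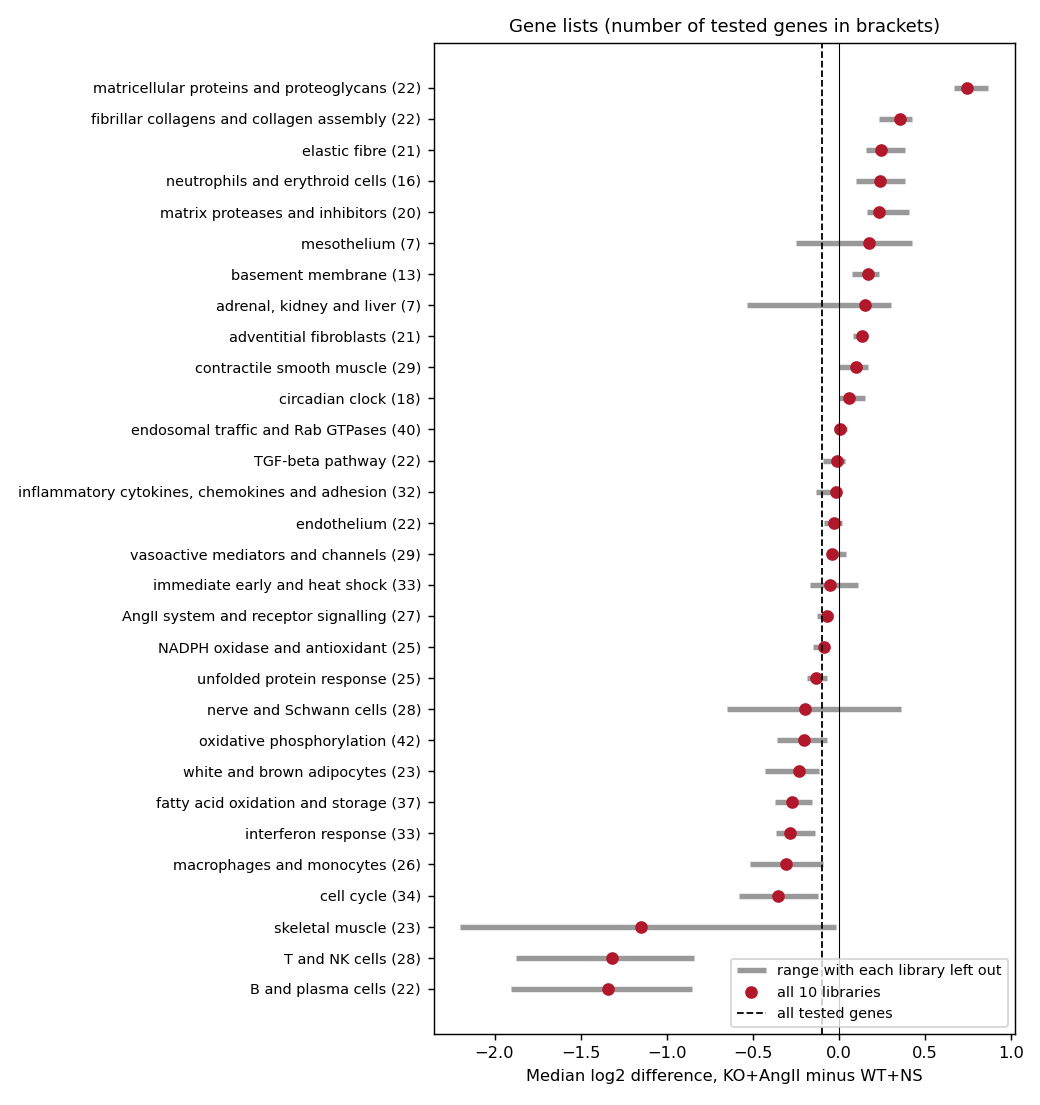
Median log2 difference of KO+AngII minus WT+NS for each of 30 gene lists (points), with the range when each of the 10 libraries was left out (bars). The dashed line is the median of all tested genes, -0.10. The matricellular list has the highest median, 0.75, and the lists of T and NK cells and of B and plasma cells the lowest.

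Genes of the AngII system showed no called difference. Agtr1a, the main AT1R gene of mice, was at 47.5, 3.57, 22.2, 2.97 and 26.4 FPKM in KO+AngII aortas, against 16.5, 9.05, 11.04, 6.69 and 10.2 FPKM in WT+NS aortas. The KO+AngII values spread above and below the whole WT+NS range, and the log2 difference was 0.32 ± 0.56 (SE, adjusted p = 0.846) with a 95% interval of -0.86 to 1.51. Without KO+AngII replicate 1 it was -0.12. Agtr1b averaged 0.874 FPKM in KO+AngII and 1.09 FPKM in WT+NS (adjusted p = 0.755), and Agtr2, the type II receptor gene, was at 0.427 and 0.245 FPKM, below the level required for testing. Agt, which encodes the precursor angiotensinogen, averaged 10.1 ± 6.71 FPKM in KO+AngII and 17.5 ± 5.18 FPKM in WT+NS (adjusted p = 0.491), and was listed at 0 in KO+AngII replicate 2. Ace, the converting enzyme, averaged 75.6 ± 33.0 FPKM in KO+AngII and 50.8 ± 8.76 FPKM in WT+NS (adjusted p = 0.41).

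Of 27 tested genes of the AngII system and receptor signalling, 9 lay above 0 and the median was -0.07, or 0.02 with quantile normalization. Rgs2, a regulator that damps signalling from the receptor's G protein, had the smallest p of the list. It was at 18.2, 14.6, 17.2, 31.8 and 32.6 FPKM in KO+AngII aortas, against 50.6, 30.8, 90.6, 35.1 and 37.1 FPKM in WT+NS aortas (log2 difference -1.02 ± 0.30 SE, adjusted p = 0.157). The groups overlapped through WT+NS replicate 2. Nr3c2, the mineralocorticoid receptor, averaged 1.60 FPKM in KO+AngII and 3.19 FPKM in WT+NS without overlap (adjusted p = 0.331).

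The endosomal list, which holds Rab GTPases and their effectors, had a median of 0.01 over 40 tested members, 21 of them above 0. It held 4 members non-overlapping above, beside 1.05% of all genes, and none was called. Rab5a, the GTPase that defines early endosomes, was at 40.1, 33.0, 36.6, 30.8 and 40.9 FPKM in KO+AngII aortas, against 26.3, 23.7, 27.8, 25.5 and 24.0 FPKM in WT+NS aortas. The groups did not overlap (log2 difference 0.49 ± 0.12 SE, adjusted p = 0.12). Its effector Eea1, which tethers early endosomes, averaged 11.7 ± 1.56 FPKM in KO+AngII and 7.99 ± 1.30 FPKM in WT+NS (adjusted p = 0.15), also without overlap. Cav2, a caveolin, averaged 82.2 ± 6.82 FPKM in KO+AngII and 53.8 ± 2.43 FPKM in WT+NS (adjusted p = 0.0798). Rab11fip5, an effector of recycling endosomes, averaged 4.46 FPKM in KO+AngII, 9.57 FPKM in KO+NS, 4.76 FPKM in WT+AngII and 10.97 FPKM in WT+NS (adjusted p = 0.141 for KO+AngII minus WT+NS).

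Contractile genes of smooth muscle lay close to zero difference, with a median of 0.10 and 20 of 29 tested members above 0. Vcl, vinculin of cell adhesions, averaged 35.3 FPKM in KO+AngII and 24.6 FPKM in WT+NS (adjusted p = 0.207). Des, the intermediate filament desmin of all muscle, averaged 63.9 ± 25.7 FPKM in KO+AngII and 147 ± 123 FPKM in WT+NS (adjusted p = 0.407). Skeletal muscle genes varied beside it. Their mean level was 6.67, 1.78, 0.859, 3.58 and 1.02 in KO+AngII aortas, against 3.68, 5.87, 1.26, 1.06 and 7.70 in WT+NS aortas on the log2(FPKM + 1) scale. Of 23 tested skeletal muscle genes 22 lay below 0, with a median of -1.15. That median was -0.02 without WT+NS replicate 5, -2.20 without KO+AngII replicate 1 and 1.17 with the title number as a covariate. The part of this tissue in the value of Des was not tested. The endothelial list had 11 of 22 members above 0 and a median of -0.03, or 0.08 with quantile normalization. Cldn5, a tight junction protein of endothelium, averaged 52.0 ± 12.6 FPKM in KO+AngII and 92.8 ± 17.2 FPKM in WT+NS without overlap (adjusted p = 0.144). Pecam1 of the same cells was at 85.7 ± 15.1 FPKM in KO+AngII and 57.9 ± 15.8 FPKM in WT+NS (adjusted p = 0.317).

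Lymphocyte genes were the lists with the lowest medians, and these followed the libraries. Of 28 tested genes of T and NK cells, 0 lay above 0 and the median was -1.32. Of 22 tested genes of B and plasma cells, 0 lay above 0 and the median was -1.34. No member of either list was called. The mean T and NK level was 0.684, 0.552, 3.18, 4.12 and 2.21 in KO+AngII aortas, against 3.59, 3.07, 3.93, 4.01 and 1.89 in WT+NS aortas on the log2(FPKM + 1) scale. KO+AngII replicates 1 and 2 were the lowest, and the other 3 lay within or above the WT+NS range. The B and plasma cell level was 1.03, 1.02, 4.03, 4.71 and 3.46 in KO+AngII aortas and 3.31 to 5.06 in WT+NS aortas. Low levels also occurred in KO+NS aortas. There the T and NK level was 4.40, 1.04, 4.84, 1.38 and 0.672, and the B and plasma cell level 5.38, 1.48, 5.105, 2.01 and 1.14. In the same order of lists, the medians were -0.93 and -1.06 for KO+NS minus WT+NS, and 0.32 and 0.11 for WT+AngII minus WT+NS. A fit without KO+AngII replicates 1 and 2 was chosen after seeing the data. Its medians for KO+AngII minus WT+NS were -0.18 for T and NK cells and -0.17 for B and plasma cells. Jchain, the joining chain of secreted antibodies, was at 3.59, 5.24, 30.8, 117 and 25.5 FPKM in KO+AngII aortas, against 238, 107, 122.5, 249 and 28.8 FPKM in WT+NS aortas (log2 difference -2.61 ± 0.88 SE, adjusted p = 0.22). No listed gene of T and NK cells or of B and plasma cells was at 0 in all 5 libraries of either group. In bulk tissue, fewer cells of a type and less RNA per cell cannot be told apart.

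**Figure D5:**
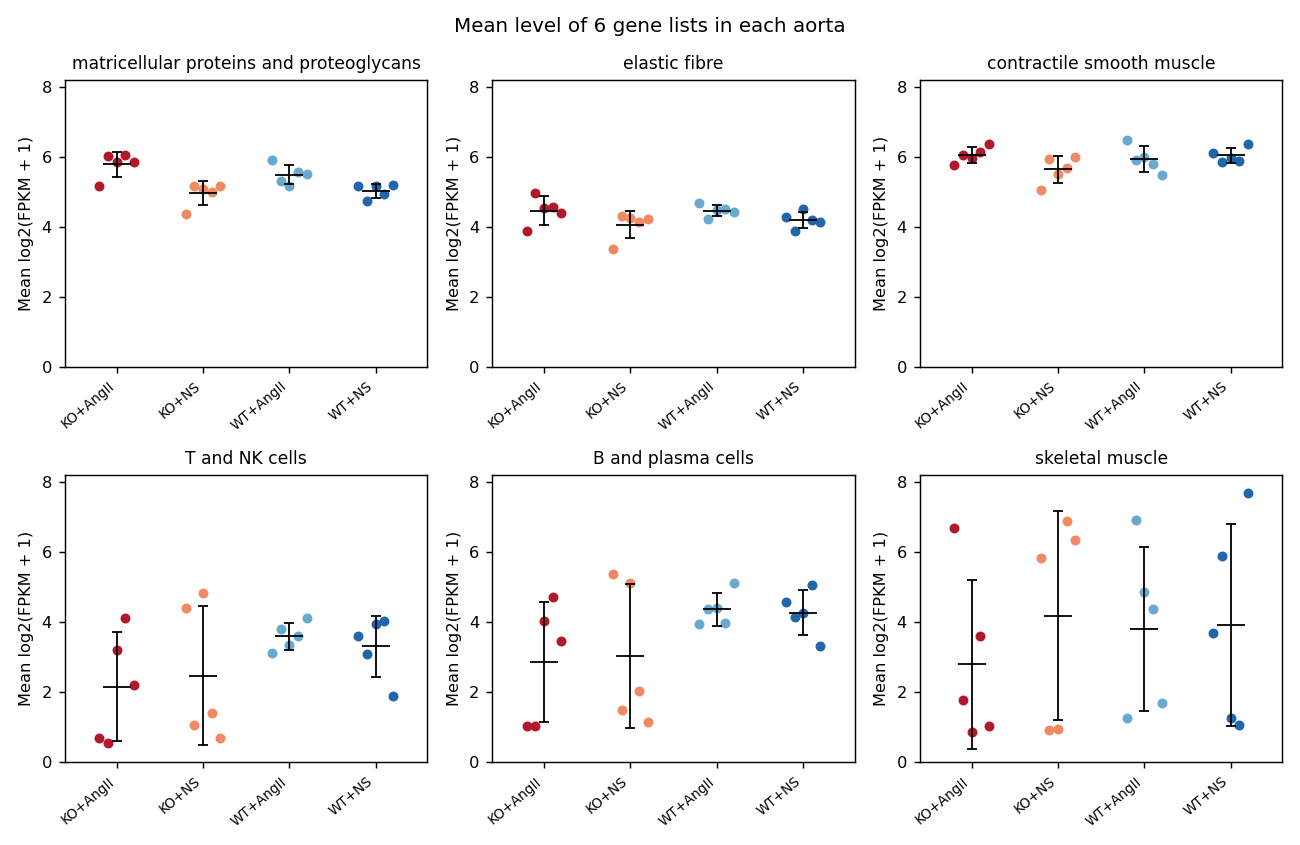
Mean log2(FPKM + 1) over the tested members of 6 gene lists in each library (points; bars are mean and SD of 5 libraries). In KO+AngII, replicates 1 and 2 lie near 1 or below for both lymphocyte lists, and replicate 1 is the lowest of its group for the matricellular list, at 5.16.

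Other immune and stress lists lay nearer the median of all genes. The macrophage list had 6 of 26 members above 0 and a median of -0.31, which was 0.11 without KO+AngII replicates 1 and 2. The interferon list had a median of -0.28 and the list of cytokines, chemokines and adhesion molecules -0.02. The interferon median was -0.14 without KO+AngII replicate 2 and -0.02 with the title number as a covariate, and the cytokine median was 0.09 with quantile normalization. Nfkbia, an inhibitor of NF-kappaB induced by it, averaged 47.8 FPKM in KO+AngII and 92.2 FPKM in WT+NS (adjusted p = 0.23). Gadd45g, a stress-induced gene, was non-overlapping at 12.3 to 26.9 FPKM in KO+AngII and 29.8 to 76.4 FPKM in WT+NS (adjusted p = 0.122). Of the NADPH oxidase and antioxidant genes, 8 of 25 lay above 0. Sod1, the cytosolic superoxide dismutase, averaged 354 ± 39.0 FPKM in KO+AngII and 459 ± 55.0 FPKM in WT+NS (adjusted p = 0.33).

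Metabolic genes had slightly negative medians. Of 42 oxidative phosphorylation genes 39 lay below 0 with a median of -0.20, and of 37 genes of fatty acid oxidation and storage 30 lay below 0 with a median of -0.27. With quantile normalization these medians were -0.01 and -0.13, beside 0.02 for all tested genes. With the title number as a covariate they were 0.03 and -0.15, beside -0.14 for all tested genes. With 1 library left out, the oxidative phosphorylation median ranged from -0.36 (without KO+AngII replicate 2) to -0.07 (without WT+NS replicate 5). The fatty acid median ranged from -0.37 (without KO+AngII replicate 2) to -0.16 (without KO+AngII replicate 4). Ndufs7, a subunit of respiratory complex I, averaged 126 ± 35.0 FPKM in KO+AngII and 205 ± 54.6 FPKM in WT+NS (adjusted p = 0.266). Dgat1, which completes triglyceride synthesis, averaged 41.5 FPKM in KO+AngII and 71.3 FPKM in WT+NS (adjusted p = 0.231). The adipocyte list had a median of -0.23 (-0.43 without KO+AngII replicate 2 and -0.11 without WT+NS replicate 2) with 18 of 23 members below 0, while Lep, one of its members, had higher values. Adipoq, the adipocyte hormone adiponectin, averaged 419 ± 84.3 FPKM in KO+AngII and 562 ± 85.2 FPKM in WT+NS (adjusted p = 0.343). Of 34 cell cycle genes 31 lay below 0, with a median of -0.35 and 0 called. The cell cycle median was -0.12 without WT+NS replicate 4, -0.58 without KO+AngII replicate 4, -0.08 without KO+AngII replicates 1 and 2, and -0.09 with the title number as a covariate.

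The other contrasts of the same fit gave the values beside which these counts stand. KO+AngII against WT+AngII gave 59 genes higher and 216 lower (0.393% and 1.44% of 15010), and limma-voom on reads recovered from the values gave 400 in all. KO+NS against WT+NS gave 0 higher and 2 lower (0.0133%). KO+AngII against KO+NS gave 0 calls, with 595 genes (3.96%) at an unadjusted p under 0.05 and 0 calls by limma-voom. WT+AngII against WT+NS also gave 0 calls, with 458 genes (3.05%) at an unadjusted p under 0.05 and 0 calls by limma-voom. For KO+AngII against WT+NS limma-voom called 9 genes higher and 3 lower.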

How the data were processed

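RNA of 20 mouse abdominal aortas was extracted with the mirVana kit, depleted of ribosomal RNA and made into libraries with NEBNext kits, per the labels' protocols. The authors deposited 1 table per library of 126719 transcript models, whose values were read as FPKM, which divides by length and library total. The unit was taken from the values, since the labels do not name it. Per the submitters' processing notes the genome was mm10, and limma is listed with no version. For aligner, counter and use of strand, the labels are silent.

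Ensembl transcripts (109913 of 110082 matched to GENCODE M21) were summed to 42890 genes, and 16637 unannotated models were left out. The 15010 genes reaching 1 FPKM in 5 or more libraries were tested. limma 3.58.1 in R 4.3.3 fitted log2(FPKM + 1) with 1 mean per group over all 20 libraries (eBayes, trend and robust). A fold change on this scale understates that of low genes. Calls are two-sided at a Benjamini-Hochberg adjusted p under 0.05. Single values were tested by exact permutation of libraries. Reads recovered from the values (99.4% to 99.6% of low values within 0.1 of a whole read) entered limma-voom as an alternative, scaled by trimmed means of M values. The scripts were tested on simulated data. Alternatives covered scaling, filters, pseudocount, covariates, weights and each library left out.

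The genes named are the called genes, the 10 of smallest p in either direction at 1 FPKM or more, up to 4 of smallest p per list, genes of the AngII system and aortic wall markers. The members, lists and tests were chosen with earlier results of these data known. Replicates are separate samples by their labels, and p-values measure only the spread between them. A listed gene and the sequences at the Rab22a exon junctions are not reported here.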

Additional observations from a re-analysis of the deposited data

Results flagged for a closer look

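Among 88 groups of 5 values checked for a library far from the others, 4 stood apart, and chance alone flags about 1 in 20. Prkcsh was at 26.05 FPKM in KO+AngII replicate 4, against 10.9 to 14.4 FPKM in the other KO+AngII libraries. Fau-ps2 was at 0.0721 FPKM in KO+AngII replicate 3 and listed at 0 in the other 4. The mean level of the matricellular and proteoglycan list was 5.157 in KO+AngII replicate 1, against 5.84 to 6.05 in the others. The Rab22a gene sum was 2.824 FPKM in WT+NS replicate 4, against 8.57 to 10.4 FPKM in the other WT+NS libraries.

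The unannotated transcript models entered no comparison above. Tested in the same way, 6 of 8760 were higher and 64 lower in KO+AngII than in WT+NS (0.799% called in either direction). The 6 higher models summed to a mean of 47.5 FPKM in KO+AngII, against 1.58 to 6.77 FPKM per library in WT+NS. That direction was fixed by how the 6 were chosen. One of them, MERGE.14637.1, averaged 21.6 FPKM in KO+AngII and was listed at 0 in all WT+NS libraries. It was also at 0 in KO+AngII replicate 3, and at 15.1 FPKM in WT+AngII replicate 1.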

How the results depend on the processing

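Of 11 genes called, no filter gave 25, a filter at 5 FPKM 22, eBayes without trend and robust 7, library weights 499, and adipocyte and skeletal muscle covariates 271. The fit on the 10 libraries compared gave 1, the title number covariate 1, removal of the length and GC trend 1, and omission of KO+AngII replicates 1 and 2 gave 1. Leaving out each library gave 1 to 14 calls. The 608 non-overlapping genes became 1049 with no filter, 389 with the length and GC trend removed, 1462 without KO+AngII replicates 1 and 2, and 698 to 1158 with each library left out, where fewer values per group make separation easier. The 11060 genes with an interval inside 2-fold became 38793 with no filter and 7203 at 5 FPKM, where the number tested changed. They became 10275 to 10812 with each library left out. Over the same 15010 genes there were 8891 with a pseudocount of 0.1, 9301 with the title number covariate and 11674 with library weights. The distance excess of 0.028 ranged from -0.00303 to 0.0848 with each library left out and was 0.0078 by 1 minus Spearman correlation (exact permutation p = 0.183).

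Replicate numbers were not treated as pairs in the main fit. Same-numbered deviations correlated at -0.0193, 0.0824, 0.231, 0.412 and -0.224. Differently numbered libraries were not correlated, so these values do not decide whether the numbers pair the libraries. The fit with a replicate block gave 0 calls (488 higher and 1668 lower at an unadjusted p under 0.05).

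Direction turned for Rab22a (-0.12), Agtr1a (-0.11), Acta2 (-0.15), Pdgfra (-0.13) and Dpt (-0.37) with the title number covariate, and for Agtr1b with quantile normalization (0.014) and without KO+AngII replicates 1 and 2 (0.072). With each library left out, Rab22a ranged from -0.032 to 0.363, Agtr1a from -0.122 to 0.781 and Acta2 from -0.036 to 0.227. None of these genes was called. The cause of each change was not tested. Implied depth was similar in all libraries. The spread between libraries, whose sources were not separated, limits precision.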

Other observations

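The 64 unannotated models that were lower in KO+AngII summed to 24.99, 23.9, 27.5, 28.5 and 30.8 FPKM in KO+AngII aortas, against 1262, 2647, 5110, 1403 and 730 FPKM in WT+NS aortas. In KO+NS they summed to 29.0 to 87.7 FPKM, and in WT+AngII to 504 to 2356 FPKM. The direction of the gap between KO+AngII and WT+NS was fixed by how the models were chosen. For 45 of the 64, every knockout library lay below every wild type library, and 23 were listed at 0 in all 10 knockout libraries. These are counts of models and not of separate loci. Groups of the names share a prefix, such as MERGE.14171, MERGE.25544, MERGE.7642, MERGE.14172 and MERGE.27340. Models of one prefix were not merged, so they are not independent items. Part of the separation of knockout from wild type libraries follows from the choice of called models. A model at 0 in all 10 knockout libraries passed the filter, 1 FPKM in 5 or more libraries, only through wild type libraries. For those 23 the direction between genotypes was fixed by that filter. The same counts over all 8760 tested models were not made, so the 45 and the 23 have no background share beside them. MERGE.5152.1 was the most abundant of the 64 in WT+NS, at 0.843 to 2.83 FPKM in KO+AngII and 154 to 1036 FPKM in WT+NS. Like Gm10800, it was highest in WT+NS replicate 3. The table gives no gene, coordinates or sequence for these models.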
